A study of Mus musculus with 10 samples.

Results

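The Polycomb group genes examined here encode subunits of the Polycomb repressive complexes PRC1 and PRC2 in mouse germinal vesicle oocytes, the fully grown oocytes held in prophase of meiosis I. All probe sets whose only platform gene symbol was Ezh1, Ezh2, Eed, Suz12, Jarid2, Rnf2, Ring1, Bmi1, Pcgf6 or Cbx2 were taken. This gave 29 probe sets of 10 genes, of 45037 probe sets and 18193 genes with 1 symbol on the array. The groups were wild type (5 arrays) and CTCF-depleted (5 arrays) oocytes, CTCF being the zinc finger protein that binds insulators and anchors chromatin loops. The labels gave no strain, age or means of depletion, did not say how many oocytes were pooled in a sample, and did not tie arrays to individual animals. The p-values therefore rest on a sample-to-sample spread that may be technical only. Titles and source names set the groups, since the description field used the same wording, naming depleted oocytes, for all 10 samples.

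PRC2 methylates histone H3 on lysine 27, with EZH1 or EZH2 as the enzyme, EED and SUZ12 as core partners and JARID2 as an accessory subunit. PRC1 attaches ubiquitin to histone H2A through RING1 or RNF2, each paired with a PCGF protein such as BMI1 or PCGF6, and CBX proteins such as CBX2 bring canonical PRC1 to the methylated histone. Polycomb complexes are known to repress developmental genes in the growing mouse oocyte, and PRC2-dependent methylation passed to the embryo can silence maternal alleles.

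On each array the brightest of 27 probe sets for Bacillus transcripts, absent from mouse RNA, served as the control level, at signals of 4.75 to 10.9, and 49.4% to 62.9% of probe sets lay above it. Ctcf fell to 2.71% and 3.62% of the wild-type mean on its probe sets 1418330_at and 1449042_at, with the highest residue on depleted replicate 5. The 10 oocyte markers were above the control level on all arrays, with none called, and their summed signal ran from 50979 to 55920.4 in wild type and from 47780 to 55441 in depleted oocytes. Of 11 granulosa and cumulus markers, 3 (Fshr, Nr5a2 and Ptgs2) were called higher and 0 lower, where 7.26% of all genes were called higher. Of the same 11 markers, 8 were above the control level on all arrays and 0 were below it throughout. Their summed signal, 725 to 1375 in wild type and 802 to 1012 in depleted oocytes, overlapped. Markers of theca and stroma, 7 on the array, summed to 164 to 195 and 165 to 197, with Col1a1 never above the control level. Markers of blood, immune and endothelial cells, also 7, summed to 104 to 141 and 111 to 136, with Ptprc never above it, and neither list had a called gene. The part of other cells in the results was not tested, and in such bulk samples fewer cells of a type and less RNA per cell cannot be told apart.

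The upstream sequences of Ezh1, Ezh2 and Suz12 are shown because these PRC2 genes carry the comparison of enzyme paralogs and the scaffold discussed next. RefSeq promoter windows (GRCm38.p6) were found for 9 of the 10 members (all but Cbx2), in 10 windows. Each sequence is the 250 bases before the start, written 5′ to 3′ on the gene's strand, with capitals for the GC box GGGCGG and the E2F-type letters TTTNNCGC on either strand.
Ezh1 (chr11:101226464-101226713, minus strand): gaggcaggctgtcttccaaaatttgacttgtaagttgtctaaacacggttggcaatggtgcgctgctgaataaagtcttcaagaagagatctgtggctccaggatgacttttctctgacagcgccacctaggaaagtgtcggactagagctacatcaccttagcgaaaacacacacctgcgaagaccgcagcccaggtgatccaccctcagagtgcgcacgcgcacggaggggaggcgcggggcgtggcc
Ezh2 (chr6:47595031-47595280, minus strand): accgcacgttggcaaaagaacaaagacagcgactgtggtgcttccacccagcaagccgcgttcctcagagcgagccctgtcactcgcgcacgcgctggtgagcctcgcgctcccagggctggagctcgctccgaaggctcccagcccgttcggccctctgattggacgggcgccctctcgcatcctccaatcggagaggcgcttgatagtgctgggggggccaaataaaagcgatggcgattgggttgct
Suz12 (chr11:79992856-79993105, plus strand): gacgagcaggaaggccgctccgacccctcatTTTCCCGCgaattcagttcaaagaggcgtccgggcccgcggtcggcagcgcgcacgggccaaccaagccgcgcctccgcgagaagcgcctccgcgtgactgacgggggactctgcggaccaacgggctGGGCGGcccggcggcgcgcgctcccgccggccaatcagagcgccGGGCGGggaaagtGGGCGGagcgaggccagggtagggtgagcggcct

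The member promoters were rich in CpG. They held a median of 21.5 CpG in 250 bases, against 6 over all 32851 promoter windows of that length, and ran from 12 for Eed to 37 for Suz12. Ezh1 had 14 CpG and no capital letters, Ezh2 had 23 and none, and Suz12 had 3 GC boxes and 1 E2F-type match. GC boxes lay in 7 of the 10 member windows and in 32.7% of all windows, and the E2F-type letters in 1 and in 4.28%. The CTCF core motif, searched on both strands, was in 0 of the 10 member windows and in 2.07% of all windows, which says only that those letters are not in these windows.

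Most Polycomb transcripts were not called as changed in CTCF-depleted oocytes. After a filter on low signal, 23 of the 29 member probe sets were tested, covering all 10 genes, and CTCF-depleted oocytes had 2 called lower (Ezh1 and Suz12) and 1 called higher (Cbx2), a call being a limma p under 0.05 after Benjamini-Hochberg adjustment over all probe sets. That is 13.0% of the tested members, against 12.6% of all 27022 tested probe sets called in either direction (7.12% lower and 5.48% higher), so the members' share lay near the background. The wild-type and depleted arrays did not overlap for the same 3 members, 13.0%, against 11.1% of all tested probe sets. Signals were compared as log2(signal + 2.47), on which scale all fold changes are given, depleted over wild type. The members' median log2 fold change was -0.050, 14 of the 23 being negative and 9 positive, beside -0.021 over all tested probe sets, and the median absolute values were 0.15 and 0.16. The called changes were a 1.16-fold fall of Ezh1, a 1.22-fold fall of Suz12 and a 1.19-fold rise of Cbx2.

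**Figure D1:**
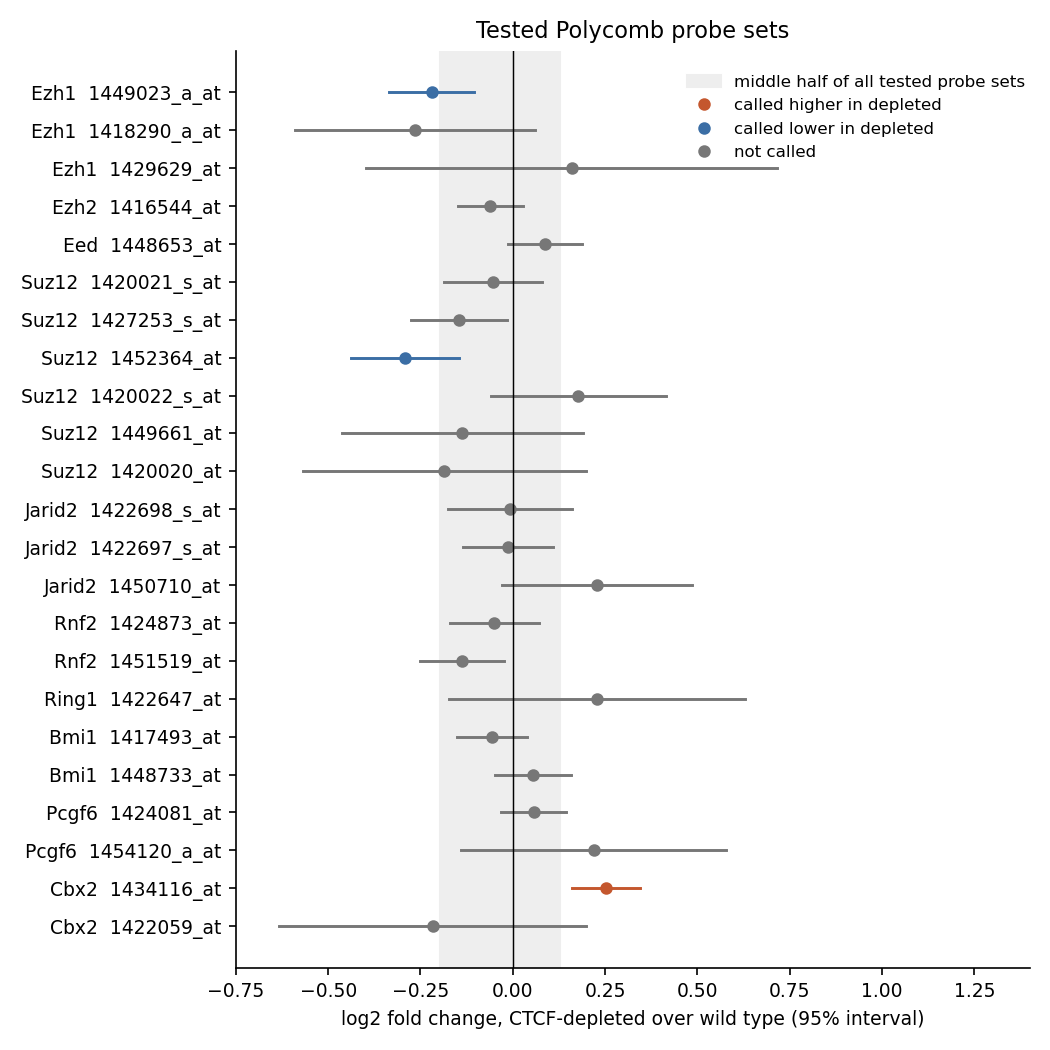
Log2 fold change (depleted over wild type) of the 23 tested Polycomb probe sets, 1 per line, with 95% intervals from limma (n = 5 per group). The grey band spans the middle of all tested probe sets, from -0.20 to 0.13. Ezh1 1449023_a_at and Suz12 1452364_at were called lower, Cbx2 1434116_at was called higher, and the widest intervals belong to dim probe sets such as Ezh1 1429629_at.

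Among the PRC2 enzymes, Ezh1 was lower in depleted oocytes and Ezh2 was not called. EZH1 is the paralog with the weaker methyltransferase activity, and EZH2 the more active one. Ezh1 (probe set 1449023_a_at) read 525, 565, 571, 557 and 543 on wild-type replicates 1 to 5 and 489, 468, 446, 481 and 485 on depleted replicates 1 to 5. Every depleted array lay below every wild-type array. The mean was 552 ± 18.4 in wild type and 474 ± 17.4 in depleted oocytes (SD, n = 5), 85.8% of wild type, a log2 change of -0.22 with an SE of 0.055 (limma adjusted p = 0.0128). With each array centred on its median signal, the value was -0.13 and the call was lost (limma adjusted p = 0.286).

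The other Ezh1 probe sets were dimmer and none was called. Probe set 1418290_a_at read 56.4 to 100.4 in wild type and 47.7 to 72.5 in depleted oocytes, ranges that overlapped, with a log2 fold change of -0.27 ± 0.15 (SE). Probe set 1429629_at was above the control level on 1 of the 10 arrays and gave 0.16 ± 0.26, and 1429630_at was above it on none and was not tested.

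Ezh2 (1416544_at) read 5154, 4918, 5063, 5008 and 5395 on the wild-type arrays and 4733, 5019.9, 5057, 4564 and 5119 on the depleted arrays. The groups overlapped, although depleted replicates 1 and 4 lay below all wild-type arrays. The mean was 5108 ± 182 against 4899 ± 239 (SD, n = 5), and the log2 fold change was -0.061, with a 95% interval from -0.15 to 0.027. The brightest signal on any array was between 8130 and 10019, so Ezh2 lay below the top of the scale. The change of Ezh1 relative to Ezh2 within each array was -0.16, from a mean log2 difference of -3.20 ± 0.088 in wild type to -3.36 ± 0.11 in depleted arrays (SD, n = 5). These groups overlapped, and the unequal change did not pass after adjustment over 3 paralog pairs (two-sided exact permutation p = 0.0476, adjusted p = 0.0714; the smallest p that 5 against 5 arrays allow is 0.00794). With the mean over each gene's tested probe sets, the change was -0.048 (exact permutation p = 0.603). That mean includes Ezh1 1429629_at, at 0.16, which was above the control level on 0 wild-type arrays and 1 depleted array.

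**Figure D2:**
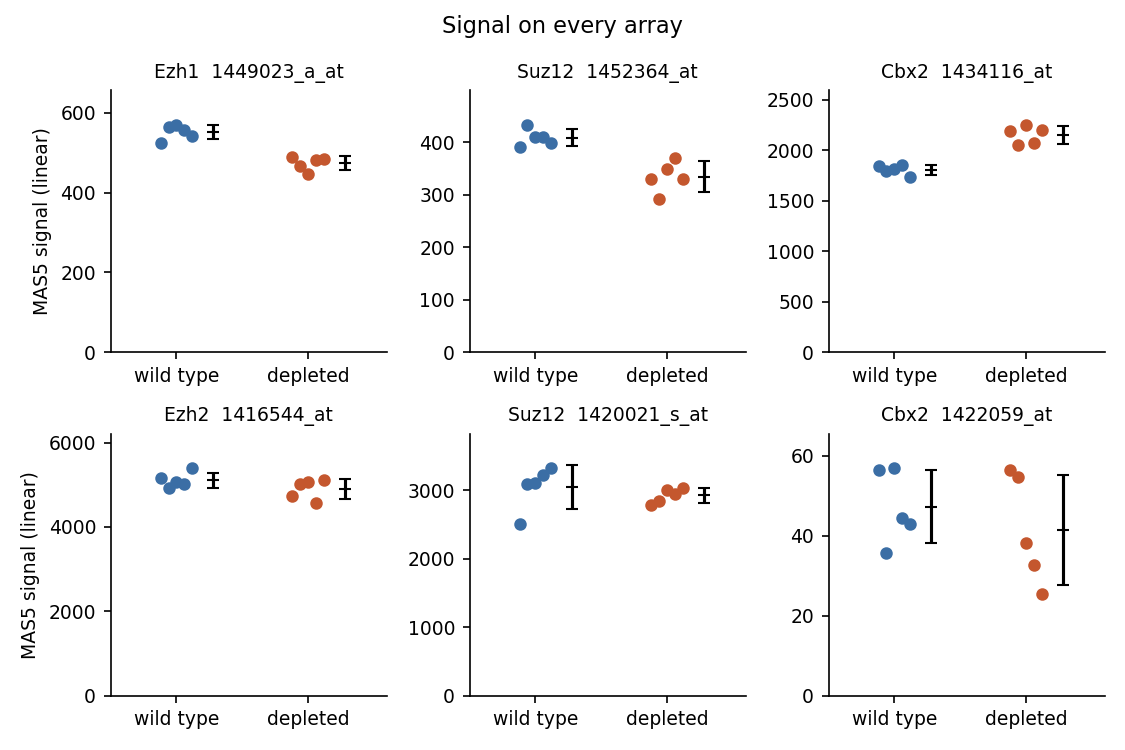
MAS5 signal on every array for the 3 called probe sets (top row) and for Ezh2 and 1 other probe set of Suz12 and of Cbx2 (bottom row), wild type in blue and CTCF-depleted in orange, with the mean ± SD (n = 5) beside the points and axes from 0. Groups are separate in the top row and overlap in the bottom row.

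Suz12, the scaffold subunit of PRC2, was lower on 1 of its 6 probe sets. Probe set 1452364_at read 391, 433, 409.9, 410.4 and 398 in wild-type replicates 1 to 5 and 329.5, 291, 349.7, 370.5 and 330.5 in depleted replicates 1 to 5. All depleted arrays lay below all wild-type arrays, with depleted replicate 2 the lowest. The mean was 409 ± 16 against 334 ± 29.4 (SD, n = 5), 81.8% of wild type, and the log2 change was -0.29 with an SE of 0.069 (limma adjusted p = 0.00954). Median centring gave -0.21 and ended the call (limma adjusted p = 0.0991).

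The other Suz12 probe sets were not called. The brightest, 1420021_s_at, read 2503 to 3323 in wild type and 2789 to 3034 in depleted oocytes, and gave -0.053, with a 95% interval from -0.19 to 0.080. Probe set 1427253_s_at, designed on the same transcript record as 1452364_at, gave -0.15, with an interval from -0.28 to -0.015 and a limma adjusted p of 0.145. The suffix _s_at marks probes that can match transcripts of several genes. The dimmer probe sets 1420022_s_at, 1449661_at and 1420020_at gave 0.18, -0.14 and -0.19, so 5 of 6 Suz12 values were negative. Whether the probe sets of Suz12 differ from each other in their change was not tested.

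Eed, the subunit that binds methylated lysine 27 and stimulates the enzyme, was not called. Probe set 1448653_at read 3334, 3557, 3406, 3079.9 and 3533 in wild type and 3358, 3659.6, 3612, 3543 and 3783 in depleted oocytes, with depleted replicate 5 highest and the groups overlapping. Its log2 fold change was 0.087, with a 95% interval from -0.012 to 0.19. The other Eed probe set, 1453830_at, was above the control level on 1 array and was not tested.

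Jarid2, which recruits and tunes PRC2, showed no called probe set. The brighter pair, 1422698_s_at and 1422697_s_at, gave log2 fold changes of -0.0070 and -0.014, with 95% intervals from -0.17 to 0.16 and from -0.14 to 0.11. On 1422698_s_at the wild-type arrays read 1611 to 2013 and the depleted arrays 1421 to 1943, with depleted replicate 2 lowest. The dimmer 1450710_at gave 0.23 ± 0.12 (SE), reading 80.6 to 113 in wild type and 93.3 to 147 in depleted oocytes. The groups overlapped on all Jarid2 probe sets, and the sign of the brighter pair turned positive under median centring.

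**Figure D3:**
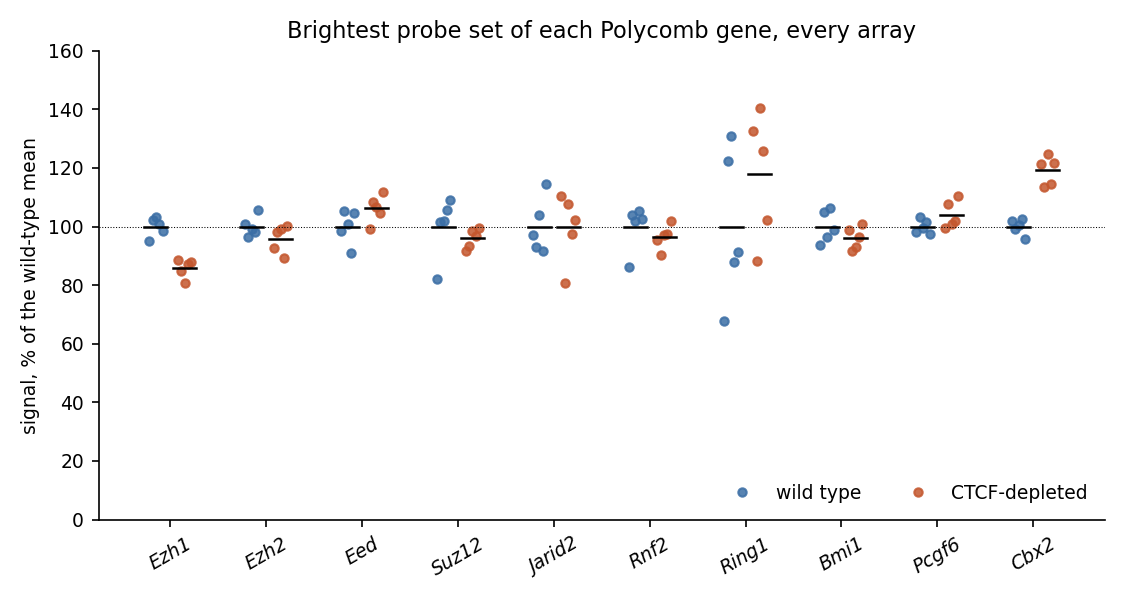
Signal of the brightest probe set of each of the 10 genes on every array, as a percentage of that probe set's wild-type mean, with wild type in blue, CTCF-depleted in orange and black bars at the group means (n = 5). Only Ezh1, near 85.8%, and Cbx2, near 119%, have groups that do not overlap, and Ring1 has the widest spread.

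The catalytic subunits of PRC1, Rnf2 and Ring1, were not called. Rnf2, which encodes the main ubiquitin ligase RING1B, read 1401, 1687, 1654, 1707 and 1663 on wild-type and 1546, 1464, 1578, 1580.4 and 1656 on depleted arrays for probe set 1424873_at. Wild-type replicate 1 lay below all other arrays, and the groups overlapped. The log2 fold change was -0.050, with a 95% interval from -0.17 to 0.071. On 1451519_at the wild-type arrays read 889.7 to 1008 and the depleted arrays 795 to 901, and the value was -0.14 with an SE of 0.053 (limma adjusted p = 0.111). The other 3 Rnf2 probe sets, 1448041_at, 1448042_s_at and 1448043_x_at, were too dim to be tested.

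Ring1, the paralogous ligase RING1A, was represented by 1 dim probe set that was above the control level on all 10 arrays. It read 13.9, 25, 26.8, 18.0 and 18.7 in wild type and 27.2, 18.1, 28.8, 25.7 and 20.9 in depleted oocytes. These values were mixed between the groups, and the log2 fold change of 0.23 had a 95% interval from -0.17 to 0.63, so a change of up to 1.55-fold was within the error. Ring1 relative to Rnf2 changed by 0.28 within arrays, which did not pass (two-sided exact permutation p = 0.135, adjusted p = 0.135).

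The PCGF partners of the ligases were also not called. Bmi1, the partner in canonical PRC1, read 3704, 4149.8, 3820.3, 4207 and 3905 in wild type and 3908, 3629, 3684, 3815 and 3992 in depleted oocytes on 1417493_at. Its log2 fold change was -0.056, with a 95% interval from -0.15 to 0.039, and its other probe set, 1448733_at, gave 0.055. Pcgf6, the partner in a variant PRC1 that also holds MGA, L3MBTL2 and E2F6, read 2697, 2838, 2736, 2784 and 2673 in wild type and 2736, 2953, 2767, 2799 and 3032 in depleted oocytes on 1424081_at. Depleted replicates 2 and 5 exceeded all wild-type arrays, the others did not, and the log2 fold change was 0.057, with an interval from -0.031 to 0.15. A dimmer Pcgf6 probe set, 1454120_a_at, gave 0.22 ± 0.17 (SE), and the 1432108_at probe set was not tested. Bmi1 relative to Pcgf6 changed by -0.11 within arrays, from 0.53 ± 0.056 to 0.41 ± 0.079 (SD, n = 5; two-sided exact permutation p = 0.0317, adjusted p = 0.0714), and so did not pass over the 3 pairs.

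Cbx2 was the member that rose. CBX2 carries a chromodomain that reads methylated lysine 27 and a region that compacts nucleosomes. Probe set 1434116_at read 1844, 1792, 1817, 1857 and 1732 in wild type and 2193, 2049.9, 2255 (replicate 3), 2072 and 2200.5 in depleted oocytes. Every depleted array exceeded every wild-type array. The mean rose from 1808 ± 49.6 to 2154 ± 88.7 (SD, n = 5), 119% of wild type, a log2 change of 0.25 with an SE of 0.043 (limma adjusted p = 0.00083). Median centring gave 0.34 and kept the call (limma adjusted p = 0.000726).

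The other Cbx2 probe set was not called. Probe set 1422059_at read 56.4, 35.7, 56.9, 44.4 and 43.0 in wild type and 56.6, 54.7, 38.2, 32.6 and 25.4 in depleted oocytes. The groups overlapped, the log2 fold change was -0.22 ± 0.20 (SE), and the 95% interval ran from -0.63 to 0.20. The difference between the Cbx2 probe sets was not tested.

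The 3 calls were then recomputed under other settings. Cbx2 1434116_at was called in all 25 alternatives, with log2 fold changes from 0.23 to 0.34. Ezh1 1449023_a_at was called in 23 of 25, being lost under median centring and at a threshold of 0.01, and Suz12 1452364_at in 23 of 24, being lost under median centring. The ratio of 3-prime to 5-prime signal of the Actb and Gapdh controls, a measure of RNA quality, ran from 2.80 to 3.11 (log2) in wild type and from 2.60 to 2.96 in depleted arrays. With that ratio as a covariate, Ezh1 gave -0.22, Suz12 -0.27 and Cbx2 0.26, all called. Without depleted replicates 2 and 5, which an earlier analysis of these data had left out together, the 2 falls and the 1 rise among members were still called.

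**Figure D4:**
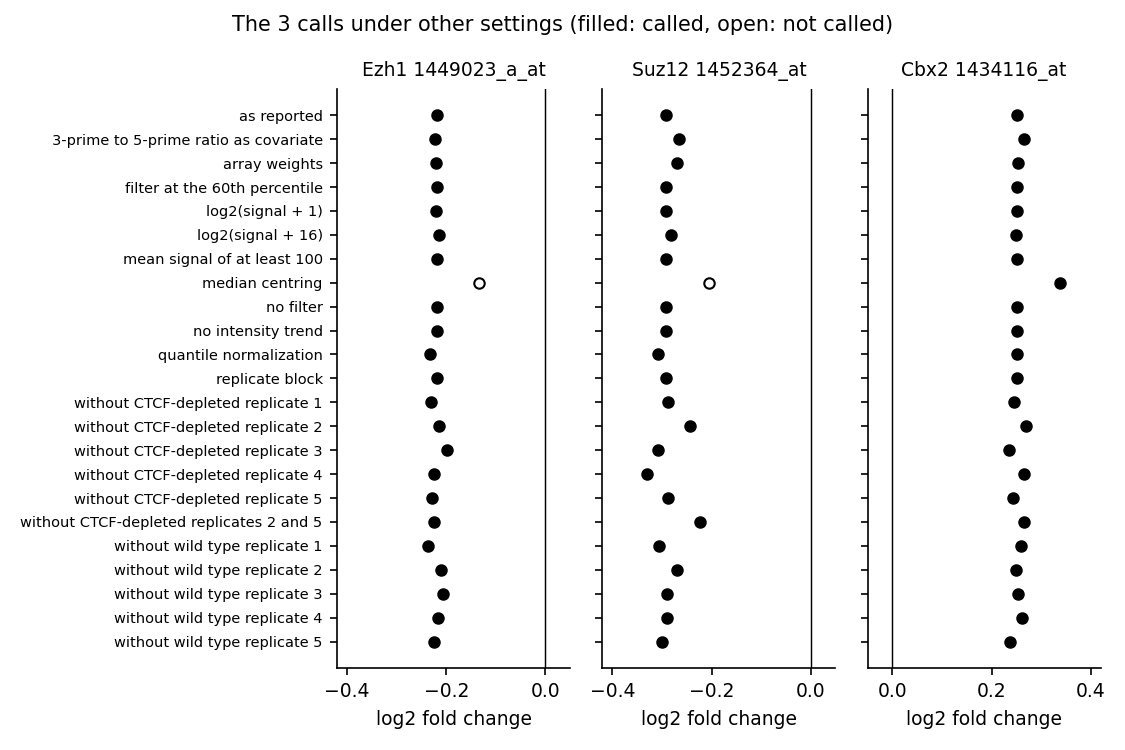
Log2 fold change of the 3 called member probe sets under each alternative fit, at a threshold of 0.05, filled where limma with Benjamini-Hochberg adjustment called it and open where it did not. Cbx2 1434116_at is filled throughout, and Ezh1 1449023_a_at and Suz12 1452364_at are open under median centring and filled in the other fits.

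For members that were not called, the intervals give the size of change within the spread between arrays at the deposited scaling. That spread may be technical only, so the intervals do not bound a biological change. Leaving out Ring1, the 7 genes whose brightest probe set was not called (Suz12, called on a dimmer one, among them) had log2 fold changes on it from -0.061 to 0.087, and no 95% interval reached beyond 1.14-fold in either direction. Over all other settings their values ran from -0.12 (Suz12 without wild-type replicate 1) to 0.17 (Eed under median centring), with 0 called. Relative spread over the wild-type arrays was 2.42% to 10.5% for the 14 member probe sets with a wild-type mean of at least 100 and 8.10% to 38.6% for the 9 dimmer ones that were tested. Of the 8 tested members with a mean signal under 100, 0 were called, where 8.09% of all such probe sets were, and of the 15 brighter ones 3 were called, 20%, where 19.1% of all such probe sets were. The 6 probe sets left out by the filter belonged to Ezh1, Eed, Rnf2 and Pcgf6 and were above the control level on at most 2 arrays. The dimmest tested member, Ezh1 1429629_at, had a signal of 5.90 at its mean log2 value, and the brightest left out, Pcgf6 1432108_at, had 3.71.

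Other subunits of the complexes were examined from a list of 43 further Polycomb genes, of which 36 were tested with 1 probe set each. Of these, 4 rose and 1 fell, 13.9% in all, against 16.4% of 13811 genes (7.26% higher and 9.12% lower). The list's median (log2) was 0.021, beside -0.017 over all genes. The 4 that rose were all listed as PRC1 subunits, where 4 of 21 rose and 0 fell, while 0 of 8 PRC2 subunits rose and 1 fell, and 0 of 7 other linked proteins were called. The difference between these lists was not tested. These counts take the brightest probe set of each gene. Of 53 other tested probe sets of the listed genes, 2 were called, a smaller share than the 12.6% of all tested probe sets. One, of the PRC2 partner Mtf2, was lower, at 454 ± 5.20 in wild type and 397 ± 20.6 in depleted oocytes (SD, n = 5; limma adjusted p = 0.0321) without overlap, and one, of the variant PRC1 subunit Bcor, was higher, at 18.2 ± 3.21 and 27.5 ± 4.32 (limma adjusted p = 0.0472) with overlap.

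Pcgf5, a PCGF partner of variant PRC1, rose 1.30-fold, from 165, 155, 162, 154 and 181 to 218, 209, 194, 229 and 217, with no overlap (limma adjusted p = 0.00275). Its other 2 tested probe sets gave 0.077 and 0.35 and were not called. Fbrs, which co-purifies with variant PRC1, rose 1.24-fold, from 299.5 ± 28.6 to 372 ± 18.3 (SD, n = 5; limma adjusted p = 0.00772), with 0.080 on its other probe set. Wdr5, a WD-repeat protein shared by variant PRC1 and the opposing methyltransferase complexes, rose 1.14-fold, from 2009 ± 127 to 2293 ± 53.6 (SD, n = 5; limma adjusted p = 0.012), with 0.20 on its other probe set. These 3 genes had groups that did not overlap, and each was called without any 1 of the 10 arrays. Wdr5 was not called without the intensity trend.

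Phc3, a polyhomeotic protein of canonical PRC1, rose from 94.2 ± 21.9 to 123 ± 5.89 (SD, n = 5; limma adjusted p = 0.0482). The groups overlapped through wild-type replicate 5 at 124.6, and the call held without wild-type replicate 2 or 5 but not without any 1 of the other 8 arrays, with adjusted p up to 0.124 in limma. It also ended with no filter, without the intensity trend and without depleted replicates 2 and 5. Phf19, a Polycomb-like partner of PRC2, fell from 84.0 ± 7.22 to 66.2 ± 7.75 (SD, n = 5; limma adjusted p = 0.0474). Its groups also overlapped, its other probe set gave 0.37, and the call held without wild-type or depleted replicate 3 but not without any 1 of the other 8 arrays, with adjusted p up to 0.12. Median centring ended the Phf19 call (limma adjusted p = 0.17).

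**Figure D5:**
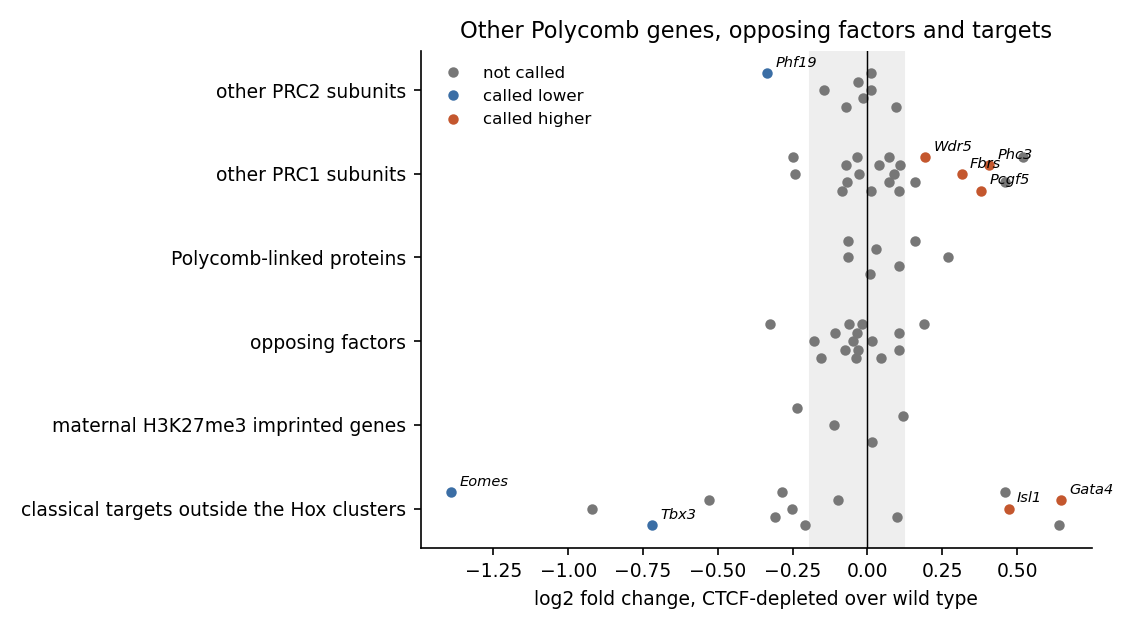
Log2 fold change (depleted over wild type) of genes outside the 10 members, 1 point per tested gene on its brightest probe set, grouped by list, with called genes coloured and named. The grey band spans the middle of all tested genes, from -0.19 to 0.12, and most points of the Polycomb lists and of the opposing factors lie in or near it. Eomes is coloured and named although it passed the filter only through its wild-type arrays.

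Of 16 tested factors that oppose Polycomb, among them the lysine 27 demethylases Kdm6a and Kdm6b, 0 were called on the brightest probe set, against 16.4% of all genes. Kdm6a gave a log2 fold change of -0.032 ± 0.044 (SE) and Kdm6b of -0.063 ± 0.042. Over the brightest probe sets, the smallest limma adjusted p was 0.0711, for Usp16, a histone H2A deubiquitinase, at 0.19. The other tested probe set of Usp16 gave -0.14. Of the list's 17 other tested probe sets, 1 was called, a smaller share than the 12.6% of all tested probe sets. It was a dim one of Kmt2e, a protein of the trithorax family, with overlapping groups. This probe set read 30.6 ± 3.46 in wild type and 20.2 ± 5.59 in depleted oocytes (SD, n = 5, limma adjusted p = 0.0447). Of 6 genes whose maternal alleles are silenced by inherited lysine 27 methylation, 4 were tested and 0 called, against 16.4% of all genes. With 4 dim genes, that count is not read as a result. Mean signals in wild type and depleted oocytes were 11.7 and 12.1 for Jade1, 12.9 and 14.5 for Smoc1, and 30.7 and 28.6 for Gab1. Xist, the long RNA of X inactivation, gave -0.24 ± 0.31 (SE). Xist read low apart from 1 array, with wild-type replicate 2 at 54.2 and the other 9 arrays between 10.7 and 15.7.

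Of 29 developmental regulators listed as classical targets outside the Hox clusters, 26 were on the array and 14 passed the filter on low signal, of which 2 were called higher and 2 lower. That is 28.6%, against 16.4% of all genes (7.26% higher and 9.12% lower), but a filter on low signal can keep a dim gene through the group where it is high, so the counts are a description only. The share includes Eomes, which passed the filter only through its wild-type arrays. The 14 also hold Cdx2, which passed only through its wild-type arrays, and Cdkn2b, which passed only through its depleted arrays, both not called. Gata4, a transcription factor of endoderm and gonad, rose 1.57-fold, from 151, 169.6, 164.6, 148.5 and 149 to 229, 250.9, 260.3, 261 and 233, without overlap (limma adjusted p = 1.63e-05). Its other probe set gave 0.41. Of 11 granulosa and cumulus markers, 3 (Fshr, Nr5a2 and Ptgs2) were also called higher, and the others were not called. The summed signal of that list overlapped between the groups, and the part of somatic cells in the Gata4 rise was not tested. Isl1, a LIM homeodomain factor, rose from 47.0 ± 7.67 to 65.7 ± 7.39 (SD, n = 5; limma adjusted p = 0.0242), with overlapping groups. Its other probe set gave 0.18 and was not called. The Isl1 call was lost without wild-type replicate 5 or without depleted replicate 1, 3 or 4 (limma adjusted p up to 0.0638) and with the covariate (0.0656).

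Tbx3, a T-box repressor, fell from 70.9 ± 15 to 42.9 ± 14.0 (SD, n = 5; limma adjusted p = 0.0168), with overlapping groups. It was not called without wild-type replicate 5 (adjusted p = 0.0525) or with the 3-prime to 5-prime covariate (0.0784), nor without the intensity trend or without depleted replicates 2 and 5. Eomes, a T-box factor of trophectoderm and mesoderm, read 12.4, 13.2, 15.3, 9.74 and 17.7 in wild type and 6.77, 0.661, 1.54, 4.56 and 7.66 in depleted oocytes. Only 1 depleted array was above the control level for Eomes, and it passed the filter only through its wild-type arrays, so no fold or test is given for it. These 4 calls, with Eomes counted, stand beside 10 tested targets that were not called. One was Cdkn2a, a cell cycle inhibitor near the control level, at -0.097 ± 0.28 (SE). Not all of the 10 were flat. Mean signal of the dim Pax6 went from 6.76 in wild type to 11.2 in depleted oocytes, without overlap. Cdx2 passed the filter only through its wild-type arrays and Cdkn2b only through its depleted arrays, so no values are given for them.

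The array pattern of Cbx2 1434116_at, the member probe set with the smallest adjusted p, was compared with 23606 tested probe sets of other genes with 1 symbol over the 10 arrays. The closest by Pearson correlation of log2 signals were Tnfrsf21 (r = 0.976), Stag2 (0.971), Itga10 (0.966), Lbx1 (0.963) and Arhgef4 (0.963), all called higher in depleted oocytes. These values describe the arrays only, since all points share the contrast between the groups and were picked from many candidates.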

How the data were processed

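Total RNA of germinal vesicle oocytes was turned into biotinylated cRNA with Affymetrix's assay for small samples and read on arrays of 1 colour. These steps are given per the labels' protocols. The authors deposited an intensity on a linear scale for every probe set of each array, computed with MAS5 per the submitters' processing notes. Neither its version nor a genome build is given in the sources used here. Each array's mean, after trimming 2% at each end, was 150.001, so arrays had been scaled. Precision is limited by the number of arrays.

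Tests used log2(signal + 2.47), where 2.47 is the lower quartile of the deposited signals. Without the 64 control probe sets, and with those kept whose mean (log2) reached the 40th percentile, a signal of about 5.13, there were 27022. The comparison of groups used limma 3.58.1 under R 4.3.3 (lmFit, then eBayes with an intensity trend), and p-values were adjusted by Benjamini-Hochberg across the whole tested table. Gene symbols came from the platform annotation (34945 probe sets with 1 symbol, 932 with several, 9160 with none), and all 10 members matched RefSeq gene IDs. List genes were represented by their brightest probe set. Paralog pairs were compared by exact permutation tests in scipy 1.17.1. Alternatives changed the offset, filter, scaling, threshold, covariates, weights and the arrays included. Promoter sequences were RefSeq's, GRCm38.p6. On simulated data for 27022 probe sets, 38 of 100 changes of 0.5 (log2) and 70 of 100 changes of 1 were recovered, with 2 false calls. Only these changes were put in, with independent normal noise, a far smaller share than the 12.6% of probe sets called in the real data. The adjustment is stricter in that setting, so the recovery checks the procedure and does not measure its power on these data.

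Same-numbered arrays of the groups correlated at 0.0024 to 0.0506 in their deviations from the group means, so the replicate numbers were not taken as pairs. The same-numbered depleted array was the best match for wild-type replicates 3 and 5 but not for 1, 2 and 4. With replicate number as a block, 3581 probe sets were called, against 3406 without it. The members, lists and tests were chosen with earlier results of these data known. Named were all member probe sets, the Ctcf probe sets, called genes of the lists, and the 5 probe sets most like the member with the smallest adjusted p. Other genes named as examples were chosen after their values were seen.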

Additional observations from a re-analysis of the deposited data

Results flagged for a closer look

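Of 52 groups of 5 arrays examined (each tested member probe set and each paralog difference in each group), 3 held an array far from the others, with a gap to its nearest neighbour above 0.71 of the group's range. Chance gives about 1 in 20. Wild-type replicate 1 read 2503 for Suz12 1420021_s_at, below 3092 to 3323 on the other wild-type arrays, and 1401 for Rnf2 1424873_at, below 1654 to 1707. Wild-type replicate 4 read 1008 for Rnf2 1451519_at, above 889.7 to 920.3. Without wild-type replicate 1, the log2 fold change moved from -0.053 to -0.12 for Suz12 1420021_s_at (limma adjusted p = 0.0916) and from -0.050 to -0.10 for Rnf2 1424873_at (limma adjusted p = 0.210). Without wild-type replicate 4, that of Rnf2 1451519_at moved from -0.14 to -0.11 (limma adjusted p = 0.252). None of these was called with or without the array concerned.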

How the results depend on the processing

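Results were recomputed under 16 other settings, at most 15 for any 1 result, and without each of the 10 arrays in turn. Called member probe sets numbered 2 lower and 1 higher without any 1 array, and with the replicate block (replicate number as a block) the counts were again 2 and 1. The member falls numbered 0 under median centring, 1 at a threshold of 0.01 and 1 with adjustment over 1 probe set a gene, which leaves out the called Suz12 probe set by construction, and the rise was 1 in each. The fall among other Polycomb genes, that of Phf19, was 0 under median centring, quantile normalization, array weights, the covariate, no filter and a threshold of 0.01. It was also 0 with the replicate block and without depleted replicates 2 and 5. A mean signal of at least 100 leaves out the called Phf19 probe set by construction, so the fall was 0 there too. Without single arrays the other Polycomb genes had 0 to 1 falls. Their rises numbered 6 under median centring (Bcor and Yy1 added), 5 under quantile normalization, array weights and the replicate block, 3 with no filter, 2 without the intensity trend and 2 at a threshold of 0.01, and 3 to 5 without single arrays. All called probe sets numbered 1821 at a threshold of 0.01.

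Among paralog differences, Ezh1 against Ezh2 passed with quantile normalization (-0.21, exact adjusted p = 0.0238) and ran from -0.19 to -0.13 without single arrays. It was -0.048 with the mean over each gene's tested probe sets (exact adjusted p = 0.603). That mean includes Ezh1 1429629_at, which was above the control level on 1 array only. Bmi1 against Pcgf6 ran from -0.14 to -0.083 and passed only without depleted replicate 1 (-0.14, exact adjusted p = 0.0476), and Ring1 against Rnf2 ran from 0.22 to 0.37. Without depleted replicates 2 and 5 these were -0.13, -0.068 and 0.45, none passing after adjustment. So few arrays then remain that a pass was hardly possible, so this does not tell whether the pairs changed unequally. With the replicate block these were -0.16, -0.11 and 0.28, none passing, and 5 pairs cannot go below 0.0625. The cause of these shifts was not tested.

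Signs turned for uncalled members only. Median centring, which raised the median of all tested probe sets from -0.021 to 0.065, gave 0.025 for Ezh2, 0.033 for Suz12 1420021_s_at, 0.079 and 0.072 for Jarid2 1422698_s_at and 1422697_s_at, 0.036 for Rnf2 1424873_at and 0.031 for Bmi1 1417493_at. The covariate gave 0.13 and 0.060 for that Jarid2 pair and -0.053 for Pcgf6 1454120_a_at. Array weights gave 0.021 for Jarid2 1422698_s_at. Without depleted replicates 2 and 5, that pair gave 0.076 and 0.037 and Suz12 1449661_at 0.030. Without single arrays the pair ran from -0.046 to 0.067 and from -0.052 to 0.020. Low signal over background limits the dim probe sets.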
